A study of Sus scrofa with 48 samples.

Results

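Gene expression was measured in perirenal adipose tissue (PRAT), which surrounds the kidneys, of 48 pigs. The 5 genes described here encode the inducible parts of the immunoproteasome, namely the catalytic subunits PSMB8, PSMB9 and PSMB10 and the activator subunits PSME1 and PSME2. They were taken by gene name from the probes of the array, among 8551 gene symbols with a probe retained by the authors. They were chosen by their measured difference between diets, which ran against that of the other proteasome genes, so the diet values below describe how they were chosen and carry no test. The pigs were castrated Large White males of 132 days of age from a line selected for low residual feed intake (RFI, the feed eaten beyond that predicted from growth and maintenance, RFIneg in the sample names) or for high RFI (RFIpl). Pigs of either line had free access to a high-fat high-fiber (HF) or a low-fat low-fiber, starch-rich (LF) diet, which gave 4 groups of 12 pigs named HF_RFIneg, HF_RFIpl, LF_RFIneg and LF_RFIpl. RNA of each pig was hybridised to its own array, so the pig is the replicate.

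The proteasome degrades ubiquitin-tagged proteins in a barrel-shaped core, the 20S particle, whose peptide bonds are cut by the catalytic subunits PSMB5, PSMB6 and PSMB7 in most cells. Immune cells, and other cells exposed to interferon gamma, make PSMB8, PSMB9 and PSMB10, which are built into newly assembled cores in place of PSMB5, PSMB6 and PSMB7, in that order. PSME1 and PSME2 form the PA28 ring, which opens the core without the 19S regulatory particle. The resulting peptides are carried into the endoplasmic reticulum by TAP1 and TAP2 and loaded onto MHC class I molecules. In adipose tissue such genes are expressed by resident immune cells as well as by fat cells, and in bulk tissue a change in the number of cells of a type cannot be told apart from a change in RNA per cell.

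All 7 adipocyte markers, such as ADIPOQ, PLIN1 and FABP4, had probes well above background on every array. One pig stood apart in the levels of the members and is named wherever it matters. Replicate 11 of LF_RFIneg had the highest value of all 48 pigs for PSMB9 (6.51, next pig 5.49), PSMB10 (6.72, next pig 6.02) and PSME2 (7.23, next pig 6.87), and it ranked 2nd for PSME1 and 7th for PSMB8. In the same pig the mean level of the interferon gamma pathway list (4.24, next pig 3.62) and of the T and NK cell marker list (2.68, next pig 2.45) was also the highest of the 48, whereas PSMB5, PSMB6 and PSMB7 ranked 31st, 16th and 43rd. Every value is log2 of the median spot signal minus the median log2 signal of all non-control probes of that array, so it is relative to the typical probe of its array and cannot be set against the value of another probe.

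The members were covered by 15 probes, of which 14 were retained by the authors and were well above background on all 48 arrays. The probe left out, named for PSMB8, was well above background on 1 array. The sequences of the PSMB8 probes and of 1 PSMB9 probe are shown because these genes are read side by side in the comparison of lines. The probes of PSMB8 start at bases 630, 653 and 729 of its transcript, and capitals mark the 37 bases that the former pair have in common, so these probes are not separate readings of different parts of the RNA. The third has no base in common with them and ends on the stop codon. The PSMB9 probe starts at base 777 and was the brighter of 2.
PSMB8, A_72_P564399: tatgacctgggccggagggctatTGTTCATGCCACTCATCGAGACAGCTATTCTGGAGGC
PSMB8, A_72_P444948: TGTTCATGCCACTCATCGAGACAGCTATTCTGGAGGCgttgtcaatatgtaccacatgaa
PSMB8, A_72_P088176: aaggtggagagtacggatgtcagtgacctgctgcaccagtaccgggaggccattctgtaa
PSMB9, A_72_P440071: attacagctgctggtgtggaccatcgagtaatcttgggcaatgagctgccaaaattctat
Below, a gene is represented by its brightest retained probe, which for these genes are A_72_P444948 and A_72_P440071.

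PSMB8, which takes the place of PSMB5, varied most over all 48 pigs. Its level ran from 2.30 over a median of 2.73 to 4.11 in HF_RFIneg, from 2.58 over 3.01 to 4.31 in HF_RFIpl, from 1.92 over 2.47 to 3.72 in LF_RFIneg and from 2.40 over 3.13 to 3.79 in LF_RFIpl. The groups overlapped, and the SD within a group was 0.49 to 0.57. In HF_RFIneg the pigs did not fill this range evenly, with 9 pigs at 2.30 to 2.84 and 3 pigs at 3.50 to 4.11, and in LF_RFIneg 10 pigs lay at 1.92 to 2.77 and 2 pigs at 3.33 to 3.72. The largest gap between neighbouring pigs was smaller in the high RFI groups, 0.32 and 0.29. For the other members the SD within the groups other than LF_RFIneg was 0.15 to 0.28. Within LF_RFIneg it was 0.21 to 0.59, and that of PSMB9 (0.59) exceeded that of PSMB8 (0.51). Without replicate 11 of that group the SD was 0.34 for PSMB9 and 0.38 for PSMB8.

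**Figure D1:**
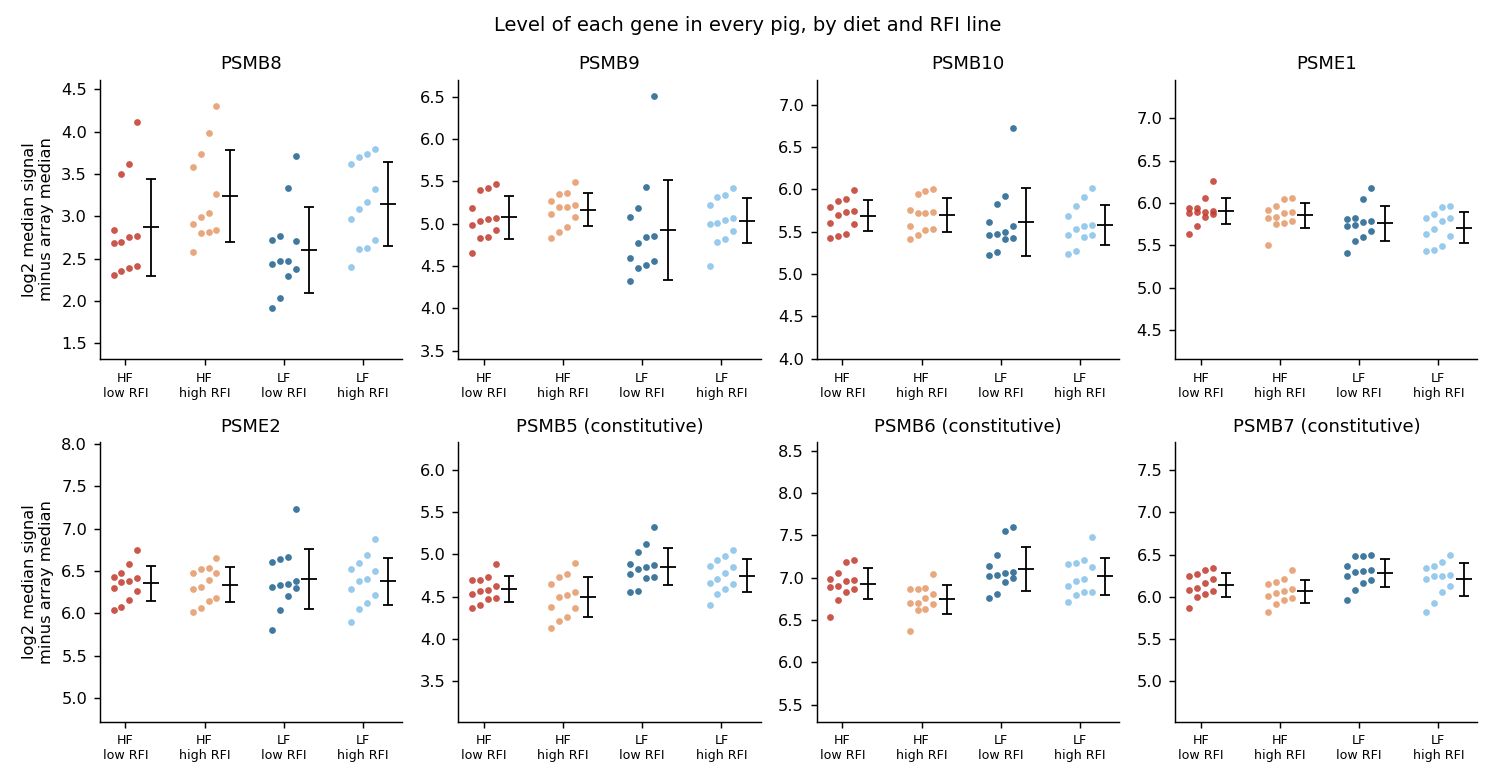
Level of the 5 members and of PSMB5, PSMB6 and PSMB7 in every pig (points), by diet and line, as log2 median signal minus the array median. Bars show the mean and SD of 12 pigs, all panels span the same log2 range, and replicate 11 of LF_RFIneg is the highest point of its group in the panels of the 5 members. PSMB8 shows the widest spread over all pigs, with the low RFI groups lying lower than the high RFI groups.

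Between diets, the means of all 3 inducible catalytic subunits were higher in HF than in LF pigs and those of their constitutive counterparts were lower. These are the values by which the genes were chosen. PSMB8 had a mean of 3.05 ± 0.58 (SD, n = 24) in HF and 2.87 ± 0.56 (n = 24) in LF pigs, a difference of 0.18 on the log2 scale, and 11 of 24 HF pigs lay above the LF mean. PSMB9 had a mean of 5.12 ± 0.23 in HF and 4.98 ± 0.45 in LF pigs, a difference of 0.14, and 17 of 24 HF pigs exceeded the LF mean. PSMB10 differed by 0.09, from 5.60 ± 0.32 in LF to 5.69 ± 0.19 in HF pigs, and 14 of 24 HF pigs exceeded the LF mean. The ranges of the diets overlapped for each of these genes. Without replicate 11 of LF_RFIneg the differences were 0.23, 0.21 and 0.14.

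The activator subunits, which pair in the same ring, did not share a direction between diets. PSME1 was higher by 0.14, with means of 5.88 ± 0.15 in HF and 5.73 ± 0.19 in LF pigs, and 21 of 24 HF pigs lay above the LF mean. Its 3 probes gave differences of 0.14 to 0.18. PSME2 had means of 6.35 ± 0.20 in HF and 6.39 ± 0.31 in LF pigs, a difference of -0.05 that became 0.08 with centring on the spike-in controls and 0.04 with both quantile normalizations. The differences of PSMB8, PSMB9, PSMB10 and PSME1 kept their direction under every scaling tried.

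PSMB5 was lower by 0.26 in HF pigs, PSMB6 by 0.22 and PSMB7 by 0.14, and the HF pigs with a value under the LF mean numbered 22, 22 and 20 of 24. The difference of each kept its sign under every scaling, though that of PSMB7 shrank to -0.02 with spike-in centring. Of the 44 other proteasome genes listed, 38 had a retained probe, and all 38 had a lower mean in HF pigs, by a median of -0.20 against -0.05 over all gene symbols. Among them 27 passed the thresholds of the study's methods, namely raw p under 0.01, fold over 1.1 and adjusted p under 0.08 in limma, and all 27 were lower in HF. The same rule called 24.5% of the 38142 retained probes for diet, 8.97% higher and 15.5% lower in HF. The members were chosen for going against these proteasome genes. The count of 27 and the counts by part below are therefore a description and not a separate test. With spike-in centring 29 of the 38 genes were lower and 4 passed, and the share of all diet calls that were higher in HF was 36.7% here, 50.5% to 51.9% with the 75th percentile and the quantile normalizations, and 89.1% with spike-in centring, which moved the median probe by 0.13.

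The lower means were spread over each part of the particle. In the 20S core 7 of 9 other subunits passed the thresholds, with the largest differences in PSMB3 (-0.25), PSMA5 (-0.24) and PSMB1 (-0.20). In the 19S particle, which recognises ubiquitin and unfolds the substrate, 11 of 20 passed, led by the deubiquitinase subunit PSMD14 (-0.43), PSMD12 (-0.30) and the scaffold subunit PSMD2 (-0.29). All 6 measured regulators and assembly factors passed, among them the assembly chaperones PSMG2 (-0.29) and PSMG1 (-0.23) and the alternative activator PSME4 (-0.28). PSME3, which forms an activator ring related to that of PSME1 and PSME2, was lower by 0.19.

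**Figure D2:**
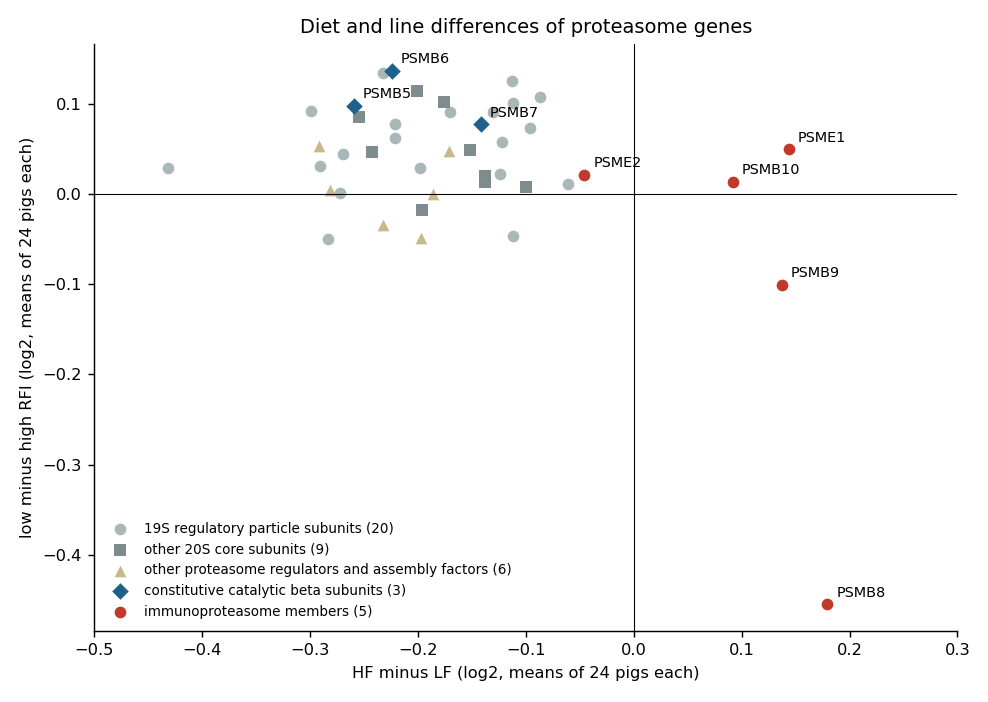
Difference between diets (x axis, HF minus LF) and between lines (y axis, low minus high RFI) on the log2 scale for the 5 members and 38 other proteasome genes, 1 point a gene, each mean over 24 pigs. The other genes lie left of 0 on the diet axis, 4 members lie right of it, and PSMB8 lies lowest on the line axis, at -0.45.

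Markers of macrophages moved with diet as well. Of 10 macrophage markers 7 were higher in HF pigs and none was lower by the same rule, with the complement genes C1QC (0.81), C1QA (0.80) and C1QB (0.76) in front. Among all retained probes the rule called 8.97% higher in HF. The mean level of the list was 2.94 in HF (1.66 to 3.97) and 2.40 in LF pigs (1.46 to 3.62). CD3G, a part of the T cell receptor complex, was higher by 0.34 (SE 0.10, adjusted p = 0.00785, limma) as the only called gene of 8 measured T and NK cell markers, a share near that of all probes. Of the 8, 6 had a higher mean in HF pigs, while CD5 (-0.19) and LCK (-0.03) had a lower one. The list means were 2.06 in HF (1.75 to 2.45) and 1.94 in LF pigs (1.61 to 2.68). None of 4 measured B and plasma cell markers was called, and the defining markers CD79B and MS4A1 were not well above background on all arrays. Of 7 adipocyte markers 5 had a lower mean in HF pigs, and 1 was called, CIDEC (-0.24, SE 0.07, adjusted p = 0.00784, limma). Of 6 endothelial markers 4 had a higher mean, and 1 was called, CLDN5 (0.30, SE 0.09, adjusted p = 0.0105, limma). Among all retained probes 15.5% were called lower. The part of these cell types in the diet differences of the members was not tested.

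The comparison of lines was not used to choose the genes and was tested. PSMB8 was lower in low RFI pigs, with levels from 1.92 over a median of 2.69 to 4.11 in 24 low RFI pigs and from 2.40 over 3.06 to 4.31 in 24 high RFI pigs. The lines overlapped, but 7 low RFI pigs lay below every high RFI pig and 19 of 24 lay below the high RFI mean. The mean was 2.74 ± 0.55 against 3.19 ± 0.51, a difference of -0.45 (SE 0.15, 95% interval -0.75 to -0.16) or 1.37-fold. In limma the raw p was 0.00353 and the adjusted p over all retained probes was 0.0897, above the threshold of 0.08, so PSMB8 was not called. The adjusted p lay between 0.0359 and 0.122 over 15 alternatives, of which 8 called it, and without replicate 11 of LF_RFIneg it was 0.0359 with a difference of -0.51. By this rule 3.6% of all probes were called for line, 1.77% lower and 1.83% higher in low RFI pigs. The study's labels give a line as a group, so relatedness of the pigs within a line was not examined here.

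The sign of the PSMB8 difference did not hang on 1 probe, diet or slide, but its size varied between slides and scan days. The 3 probes gave -0.47 to -0.45. The difference was -0.37 among HF pigs and -0.54 among LF pigs, and low RFI pigs had the lower mean on all 6 slides, by values from -1.12 to -0.15. The value of -1.12 came from slide 2, and no fit was made without that slide. By scan day the difference was -0.68 among the 24 arrays of day 1 and -0.23 among the 24 arrays of day 2. No other member was called, and the estimates were smaller. That of PSMB9 was -0.10 (SE 0.10, 95% interval -0.31 to 0.10, adjusted p = 0.774, limma), and without replicate 11 of LF_RFIneg it was -0.17 (SE 0.08, adjusted p = 0.279). Those of PSMB10, PSME1 and PSME2 were 0.01, 0.05 and 0.02 with adjusted p of 0.974, 0.779 and 0.955. The intervals of the latter 3 lay within -0.14 to 0.17. PSMB5, PSMB6 and PSMB7 were higher in low RFI pigs by 0.10, 0.14 and 0.08, none of them called, with adjusted p of 0.519, 0.296 and 0.539 in limma.

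**Figure D3:**
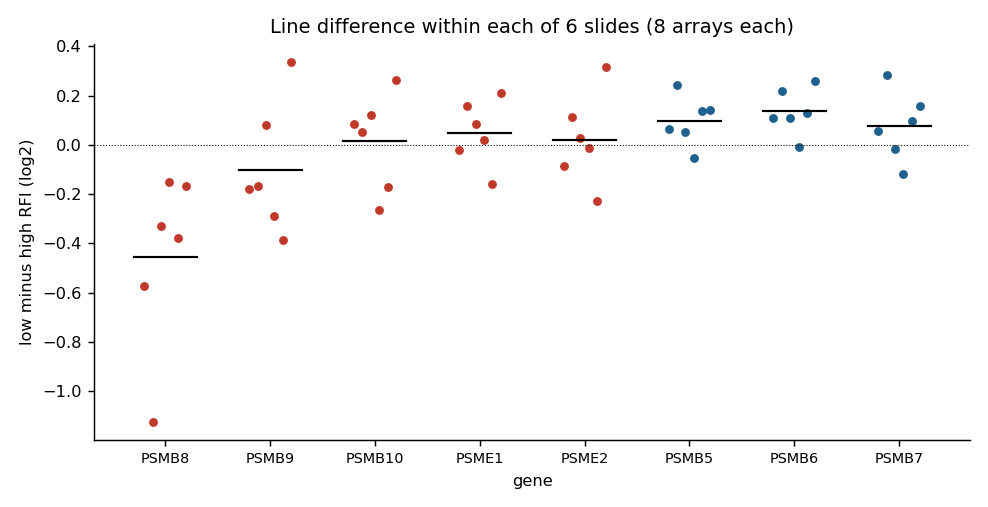
Difference between lines (y axis, low minus high RFI, log2) within each of 6 slides (points, 8 arrays a slide, 4 of each line) for the 5 members (red) and PSMB5, PSMB6 and PSMB7 (blue). Black lines mark the difference over all 48 pigs. All 6 points of PSMB8 lie below 0, while those of the other members lie on both sides.

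In the Sscrofa11.1 annotation PSMB8 lies in the MHC region in the order SLA-DOB, TAP2, PSMB8, TAP1 and PSMB9, and its neighbours were measured on the same arrays. The line differences along this row were -0.22 for SLA-DOB, 0.13 for TAP2, -0.45 for PSMB8, -0.10 for TAP1 and -0.10 for PSMB9, and none was called. Within an array the difference between PSMB8 and PSMB9 had a mean of -2.27 ± 0.45 in the low line and -1.91 ± 0.53 in the high line, and 20 of 24 low RFI pigs lay below the high RFI mean. This pair was singled out after its values were seen, and no test was made of it. PSMB10 lies on chromosome 6. PSME1 and PSME2 lie on chromosome 7, as PSMB8 and PSMB9 do, but not in this row, and are separated from each other by EMC9 alone.

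The difference between diets did not change detectably with line for any member. The interaction, taken as HF minus LF in low RFI pigs less the same in high RFI pigs, ran from -0.05 for PSMB10 to 0.17 for PSMB8 (SE 0.30), with raw p of 0.559 or more. Without replicate 11 of LF_RFIneg it was 0.28 for PSMB8 (SE 0.29, raw p = 0.34, limma) and 0.16 for PSMB9 (SE 0.15, raw p = 0.296), against 0.02 for PSMB9 with it. The diets differed in PSMB8 by 0.27 in the low line and by 0.09 in the high line, and PSME1 by 0.14 in either line. Over the whole array limma called 0 of 38142 probes for the interaction, as did the two-way ANOVA. The unadjusted p was under 0.05 for 826 probes in limma and 810 in the ANOVA. Either is a smaller share of the probes than the 0.05 expected without any interaction.

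The balance of inducible over constitutive catalytic subunit was followed as the log2 ratio of their signals within an array, which does not depend on how arrays are centred. All 3 ratios were higher in HF pigs, by 0.44 for PSMB8 over PSMB5, 0.36 for PSMB9 over PSMB6 and 0.23 for PSMB10 over PSMB7, and 17, 20 and 21 of 24 HF pigs lay above the LF mean. These follow from the choice of the genes. Between lines, which the choice did not use, the ratio of PSMB8 to PSMB5 was lower in low RFI pigs, with a mean of -1.99 ± 0.64 (n = 24) against -1.44 ± 0.58 (n = 24). The difference of -0.55 had p = 0.00197 and an adjusted p of 0.00591 over 3 ratios in a two-sided permutation test, with 20 of 24 low RFI pigs below the high RFI mean. It was -0.46 among HF and -0.65 among LF pigs, and the adjusted p was 0.00138 to 0.0132 over 9 alternatives. The ratio holds the same PSMB8 values as the comparison above, where PSMB8 differed by -0.45 and PSMB5 by 0.10, neither called. It is therefore not separate evidence. Its p was adjusted over 3 ratios, whereas that of PSMB8 was adjusted over all retained probes.

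For PSMB9 over PSMB6 the line difference was -0.24, from -1.78 ± 0.37 in high to -2.02 ± 0.58 in low RFI pigs, which did not pass the permutation test (adjusted p = 0.117). Without replicate 11 of LF_RFIneg, which had the highest ratio of all pigs at -0.53, it was -0.31 with an adjusted p of 0.0121. Of 9 alternatives 2 passed, this one and the replicate block with that pig kept (adjusted p = 0.0499, permutation test). The result therefore depended on 1 pig and on the model. For PSMB10 over PSMB7 the difference was -0.06 (adjusted p = 0.538).

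**Figure D4:**
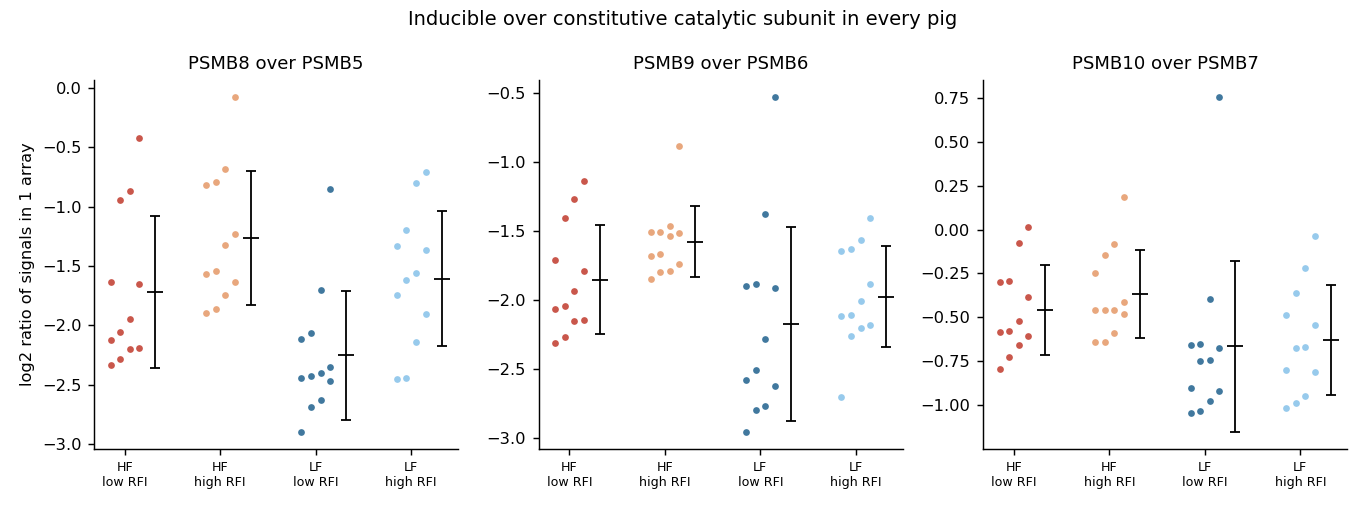
Log2 ratio of each inducible catalytic subunit to the constitutive subunit it takes the place of (y axis), in every pig (points) by diet and line, with the mean and SD of 12 pigs. In the PSMB8 over PSMB5 panel the low RFI means lie below the high RFI means on either diet, and replicate 11 of LF_RFIneg is the highest point of the PSMB9 over PSMB6 and PSMB10 over PSMB7 panels.

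Whether the members rose and fell together from pig to pig was examined on deviations from the group means, which hold neither the diet nor the line difference. Of the 28 pairs among the members and PSMB5, PSMB6 and PSMB7, 12 had an adjusted p under 0.05 in a permutation test within groups. Among the members 9 of 10 pairs did, all positive. PSMB9 and PSMB10 were the closest pair, with r = 0.89 and rho = 0.82 (adjusted p = 5.6e-05 for either, from the smallest p the resamples allow), r of 0.75 to 0.98 in the 4 groups, 0.79 without the 2 pigs farthest from the median and 0.80 without replicate 11 of LF_RFIneg. PSMB9 and PSME2 gave r = 0.73 and rho = 0.71, and PSME1 and PSME2 gave r = 0.68 and rho = 0.61. Both held within every group, where r was at least 0.61 and 0.55.

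PSMB8 was the loosest of the members. Its r with the other members was 0.31 to 0.44, and in HF_RFIpl it was negative with each of them (-0.36 to -0.09), whereas in LF_RFIneg it was 0.57 to 0.79. Without replicate 11 of LF_RFIneg none of the 4 pairs with PSMB8 had an adjusted p under 0.05, and 5 of the 10 member pairs did. Without the 2 pigs farthest from the PSMB8 median its r was 0.14 to 0.27, so the relations of PSMB8 rest on few pigs.

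PSMB5, PSMB6 and PSMB7 also moved together, with r of 0.63 to 0.82. None of the 15 pairs of a member with one of them passed, with r between -0.23 and 0.20. Without replicate 11 of LF_RFIneg 1 of the 15 pairs did, PSME2 with PSMB5 (r = 0.36, adjusted p = 0.049, permutation test). All genes of a pig were read from the same array, so array quality is shared by both sides of each relation.

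**Figure D5:**
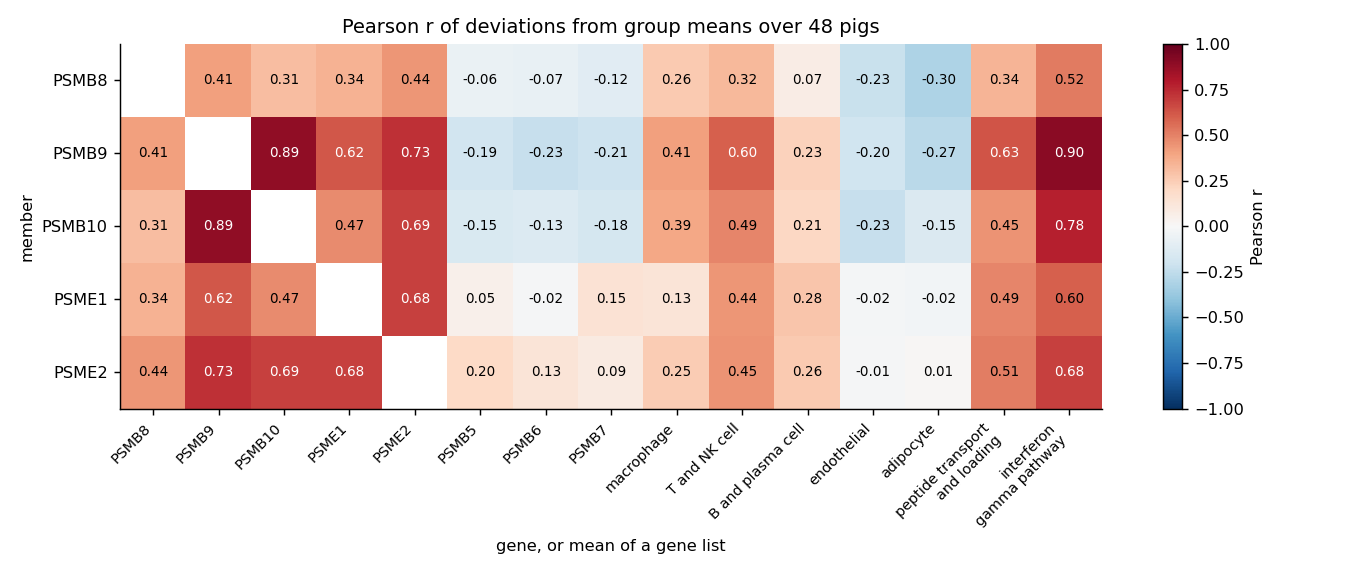
Pearson r over 48 pigs of deviations from group means, for each member (y axis) against the other members, PSMB5, PSMB6 and PSMB7, and the mean of 7 gene lists (x axis). The colour runs from -1 (blue) over 0 (white) to 1 (red). The interferon gamma pathway column is red in every line of the grid, with r from 0.52 to 0.90, and the PSMB5, PSMB6 and PSMB7 columns are pale.

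Of 35 relations of a member with the mean of a gene list 15 had an adjusted p under 0.05, all positive. The interferon gamma pathway list, which holds receptors, signalling genes and well known targets such as IRF1, CXCL10 and GBP1, passed with all 5 members, with r of 0.90 for PSMB9, 0.78 for PSMB10, 0.68 for PSME2, 0.60 for PSME1 and 0.52 for PSMB8 and permutation p adjusted over the 35 relations of 8.75e-05, 8.75e-05, 8.75e-05, 0.00028 and 0.000875. For PSMB9 r was 0.70 to 0.95 in the 4 groups. For PSMB8 it was -0.01 in HF_RFIpl. All 5 relations also passed without replicate 11 of LF_RFIneg, with r of 0.43 to 0.81. The probe of IFNG itself was not well above background on all arrays.

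The list of peptide transport and loading genes passed with 4 members, with r from 0.45 for PSMB10 to 0.63 for PSMB9, and with 3 members without replicate 11 of LF_RFIneg. The T and NK cell list passed with 4 members (r of 0.44 to 0.60) and the macrophage list with PSMB9 and PSMB10 (r of 0.41 and 0.39). Without that pig 1 relation with the T and NK cell list passed, that of PSMB9 (r = 0.41, adjusted p = 0.0278, permutation test), and none with the macrophage list. Within HF_RFIpl and LF_RFIpl every r with the T and NK cell list lay between -0.18 and 0.21. Within HF_RFIneg, which does not hold that pig, r with this list was 0.469 to 0.835 over the members. Within LF_RFIneg, which holds it, r was 0.639 to 0.824. No relation with the B and plasma cell, endothelial or adipocyte lists passed. The B and plasma cell list reached 1.95 in LF_RFIpl (SD 0.64), against at most -0.004 in HF_RFIneg, and no fit left out the LF_RFIpl pig with that value. Its r with the members was 0.52 to 0.69 in LF_RFIneg and -0.23 to 0.17 in HF_RFIneg. Over all pigs rho was 0.16 to 0.27 (adjusted p of 0.123 or more, permutation test).

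The genes most like each member were sought among 8550 other symbols by the same deviations over 48 pigs. Genes among the 5 most like PSMB9 were TAP1 (r = 0.90), PSMB10 (0.89), B2M, the invariant chain of MHC class I (0.87), and GVIN1, an interferon-induced GTPase (0.87). PSMB10 was most like PSMB9 (0.89), the sugar transporter SLC2A6 (0.83), the MHC class II chain SLA-DQA (0.81), IFI35 (0.81) and the class II peptide loading factor SLA-DMB (0.80). Those of PSME2 included PSMB9 (0.73), SHISA5 (0.71), IFIT3 (0.70) and PSMB10 (0.69). PSME1 came closest to PSME2 (0.68), ISG20 (0.64), ISG12(A) (0.64), B2M (0.63) and PARP12 (0.63). Without replicate 11 of LF_RFIneg PSMB10 fell to rank 49 for PSME2, and ISG20 and B2M to ranks 17 and 21 for PSME1. The r of SLC2A6 with PSMB10 fell to 0.68, while PSMB9 stayed first for PSMB10 with r = 0.80.

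The genes most like PSMB8 included the MHC class II chain SLA-DRB1 (r = 0.66), CST7, a cystatin of blood cells (0.55), MYO1F (0.55) and LAPTM5, a lysosomal protein of blood cells (0.55). Without replicate 11 of LF_RFIneg SLA-DRB1 stayed first with r = 0.61, and CST7, MYO1F and LAPTM5 dropped to ranks 13, 8 and 11. Under the same change TAP1 had r = 0.86 with PSMB9.

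The other genes of the pathway were compared by the same rule, which called 24.5% of all probes for diet and 3.6% for line. Of 8 measured genes of peptide transport and loading 1 was called for diet, the chaperone CANX, which was lower in HF pigs by 0.21 (SE 0.07, adjusted p = 0.0154, limma). TAP1 and TAP2 differed by 0.05 each and B2M by 0.01, and TAPBP, which bridges TAP to class I molecules, by 0.23 (SE 0.09, adjusted p = 0.0471), with a raw p that missed the threshold. With the slide as a block TAPBP was called (adjusted p = 0.0131). Of 16 measured interferon gamma pathway genes IRF2 was higher by 0.18 (SE 0.05, adjusted p = 0.00792) and NLRC5, the transactivator of class I genes, was lower by 0.14 (SE 0.05, adjusted p = 0.031). The median difference of the 16 was -0.03, against -0.05 over all gene symbols. With spike-in centring 5 genes of these lists were called, all higher in HF, and CANX and NLRC5 were not among them. NLRC5 was also not called without replicate 11 of LF_RFIneg. For line none of the 24 genes was called. The largest difference was that of the receptor IFNGR1, which was 0.21 in favour of low RFI pigs (SE 0.07, raw p = 0.00701, adjusted p = 0.136, limma).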

How the data were processed

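PRAT of 48 pigs was measured on single-colour Agilent arrays, 1 a pig, on 6 slides of 8 arrays with 2 of each group, scanned on 2 days. Signal intensity of each spot, with 0 or 1 flags (score) for spots above background or saturated, was written by Feature Extraction and deposited without normalization between arrays. The log2 table deposited by the authors holds 38142 probes, which they filtered on intensity, uniformity, saturation and outliers in R 2.10.0 and centred on array medians. Its row names did not go with its values in all but 2 cases, so each of its entries was matched to a spot by value (tolerance 1e-06), and names were taken from the spot. The genome build is not given in the sources used here. The members, lists and tests were chosen with earlier results of these data known.

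Levels were computed as log2 median signal minus the array median over 60306 non-control spots. The median signal of these spots was 115 to 178 and the background 23 to 33, and 38875 to 47814 spots were well above background. The number of arrays limits the precision. Diet, line and interaction were fitted over all retained probes with limma 3.58.1 in R 4.3.3 (lmFit, eBayes), and called at raw p under 0.01, fold over 1.1 and Benjamini-Hochberg adjusted p under 0.08. The script was tested on simulated data. Permutation tests drew 100000 resamples, of line labels within diet for ratios and of pigs within groups for correlations, two-sided, with a smallest p of 1e-05, adjusted over 3 ratios, 28 pairs and 35 relations. Python 3.11.15, numpy 2.4.6, pandas 2.3.3, scipy 1.17.1 and matplotlib 3.10.9 were used.

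Named were the members, PSMB5, PSMB6 and PSMB7, the called genes with the 3 largest differences in each direction and the defining markers of each list, and the 5 genes most like each member. Other genes, among them PSME3, the neighbours of PSMB8, TAPBP and IFNGR1, were named after their values were seen. The alternatives were centring on the retained probes, the processed signal centred on the 75th percentile, spike-in centring, quantile normalization with or without normexp (offset 50), no filter, only probes well above background on all arrays, the mean of a gene's probes, a block for the slide, the scan day or the replicate number, the methods' two-way ANOVA, no interaction term, and adjusted p under 0.05 without a fold limit. Leaving out replicate 11 of LF_RFIneg was added after seeing the data. Protein and promoter sequences were not analysed here. A few genes that the rule names are left out here.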

Additional observations from a re-analysis of the deposited data

How the results depend on the processing

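For the line effect 1 member, PSMB8, was called with the processed signal, spike-in centring, both quantile normalizations and a block for the slide, the scan day or the replicate number, and without replicate 11 of LF_RFIneg (1), against 0 otherwise. Ratios with an adjusted p under 0.05 numbered 2 with the replicate block and without that pig, against 1. Of the other proteasome genes 16 were called for diet with either quantile normalization and 4 with spike-in centring, against 27. Of the peptide loading and interferon genes spike-in centring called 5 for diet, against 3, and blocks for slide or replicate number called 1 for line, IFNGR1, against 0. Relations of members with lists that passed numbered 24 with spike-in centring and 9 without that pig, against 15. The other alternatives left these counts within 1.5 times.

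Among the line differences and interactions of the members, signs turned only for values near 0, none of them called. Between diets the sign turned for PSME2, as given above. With spike-in centring 9 of the 38 other proteasome genes also turned to a higher mean in HF, with 0 of them called higher. The line difference of PSMB10 was -0.016 with spike-in centring and -0.037 without that pig, and that of PSME2 -0.0087 and -0.016. The interaction of PSMB10 was 0.055 and 0.053, that of PSME1 0.10 and 0.038, and that of PSME2 0.092 and 0.065. With the mean of the probes the interaction was 0.0060 for PSME1, 0.0050 for PSME2 and -0.0064 for PSMB9. For PSMB9 it was -0.0016 centred on the retained probes, -0.00058 with the processed signal, -0.010 with quantile normalization and -0.013 with normexp, and for PSME1 0.00014 with normexp. The cause was not tested.

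Pigs with the same replicate number lay on the same slide. The correlation of their deviations had a median of 0.12, against -0.01 for other pairs, and was over 0.1 in 38 of 72 pairs. The other pairs hold pigs of the same and of different slides, so number and slide were not told apart. The main fit has no block for either. With the slide as a block the line difference of PSMB8 had an adjusted p of 0.0639 in limma. With the replicate block the line difference of PSMB8 was -0.45 (adjusted p = 0.0564, limma), and that of PSMB9 over PSMB6 had an adjusted p of 0.0499 by permutation. TAPBP was called for diet with the replicate block (adjusted p = 0.0129, limma). Signal over background limits dim probes, and every retained probe of the members was well above background on all arrays.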
